A study of Rattus norvegicus with 4 samples.

Results

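The insulin-like growth factor (IGF) system of L6 myoblasts was followed through its 2 ligands, Igf1 and Igf2, its 2 receptors, Igf1r and Igf2r, and the binding proteins Igfbp2 to Igfbp6. These 9 genes were chosen by symbol, as every probe set whose only symbol in the array annotation was 1 of them, and were read by 22 of the 20826 probe sets with a single symbol. They are 9 of 14217 genes measured. Igfbp5 had 5 probe sets, Igf2 had 4, Igf1 had 3, Igf1r, Igf2r, Igfbp3 and Igfbp6 had 2 each, and Igfbp2 and Igfbp4 had 1 each. L6 is a skeletal myoblast line of the rat, labelled as Wistar. L6-HGF myoblasts carried the human hepatocyte growth factor gene in a retroviral vector and had been selected with puromycin, and L6-WT myoblasts were the unmodified line. No empty-vector line was described, so that vector and selection cannot be told apart from human HGF (hHGF) in any comparison of the cell lines, and the sources used here do not say whether the selected cells were a single clone. Each line was grown as a myoblast sheet, a dense layer that detaches whole from a thermoreactive dish, and as an ordinary monolayer culture. Total RNA of each of the 4 cultures was hybridised to 1 Affymetrix rat genome array.

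IGF1 and IGF2 are small secreted hormones related to insulin. Both signal through IGF1R, a receptor tyrosine kinase that drives growth, survival and differentiation of muscle cells, whereas IGF2R, also called the mannose 6-phosphate receptor, takes up IGF2 and delivers it for degradation. The binding proteins hold the ligands outside the cell and can either withhold them from the receptor or deliver them to it, and secreted proteases free the ligands again. Myoblasts in culture are known to make IGF2 as an autocrine factor when they differentiate.

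The promoter table drawn from RefSeq for the rat assembly GRCr8 held 10 start sites for the 9 genes, 2 of them for Igf2. The 300 bases around the start site, 250 before it and 50 after it, are shown for Igf2, Igf1 and Igfbp5, the members with a probe set past 2-fold in the comparisons of the cell lines. Each is written 5′ to 3′ on the strand of its gene, at chr1:207253931-207254230 (minus strand) for Igf2 start site 1, chr1:207250426-207250725 (minus strand) for Igf2 start site 2, chr7:24172282-24172581 (plus strand) for Igf1 and chr9:81914138-81914437 (minus strand) for Igfbp5. Capitals mark every match to CANNTG, the E-box letters that myogenic basic helix-loop-helix factors can bind.
Igf2 start site 1: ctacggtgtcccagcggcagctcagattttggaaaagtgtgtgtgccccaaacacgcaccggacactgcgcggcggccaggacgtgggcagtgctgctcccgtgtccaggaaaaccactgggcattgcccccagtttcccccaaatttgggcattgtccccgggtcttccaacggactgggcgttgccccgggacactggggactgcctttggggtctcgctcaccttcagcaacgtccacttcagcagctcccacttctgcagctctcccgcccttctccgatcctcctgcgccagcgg
Igf2 start site 2: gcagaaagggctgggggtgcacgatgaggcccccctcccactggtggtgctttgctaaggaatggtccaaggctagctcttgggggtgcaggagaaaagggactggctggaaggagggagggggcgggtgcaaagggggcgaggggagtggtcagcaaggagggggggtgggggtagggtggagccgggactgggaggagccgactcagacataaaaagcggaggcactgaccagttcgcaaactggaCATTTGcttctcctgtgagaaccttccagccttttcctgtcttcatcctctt
Igf1: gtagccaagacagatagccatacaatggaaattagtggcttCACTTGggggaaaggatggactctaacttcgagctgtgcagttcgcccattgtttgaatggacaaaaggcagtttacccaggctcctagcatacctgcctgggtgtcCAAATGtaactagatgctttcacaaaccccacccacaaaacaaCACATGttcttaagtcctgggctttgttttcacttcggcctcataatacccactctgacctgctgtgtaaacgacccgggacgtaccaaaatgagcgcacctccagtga
Igfbp5: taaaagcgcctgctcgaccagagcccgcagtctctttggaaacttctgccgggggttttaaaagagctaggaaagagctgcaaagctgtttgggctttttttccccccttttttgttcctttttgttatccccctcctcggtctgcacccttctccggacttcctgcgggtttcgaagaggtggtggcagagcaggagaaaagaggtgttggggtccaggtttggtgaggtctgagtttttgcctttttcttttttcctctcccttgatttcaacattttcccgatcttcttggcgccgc
The Igf1 window held 3 matches, the window of Igf2 start site 2 held 1, and the windows of Igf2 start site 1 and of Igfbp5 held 0. Of the 10 member windows, 8 held CANNTG, against 72.1% of all 33469 rat windows of this length. The letters GGGCGG, a GC box, were in 5 of the 10 and in 33.1% of all windows, ACGTG, the core of the hypoxia response element, in 4 and in 19.3%, and TATAAA in 1 and in 14.2%. Both strands were searched, and ACGTG can overlap an E-box. The Igfbp5 window held none of these 4 motifs. These matches describe letters only, and none is known from these data to be a bound site.

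The authors deposited log2 values that had been normalized with RMA, a method that corrects background, normalizes arrays to a common distribution and summarises the probes of a probe set, and then centred each probe set on the median of its 4 arrays. The centred values hold differences between arrays but no level of signal, so that Igf1 cannot be ranked against Igf2, and a probe set near background looks the same as one with strong signal. In each probe set the 2 middle arrays lie equally far above and below 0. With 1 array per condition no difference between 2 arrays has a replicate check or a test. As a measure of labelling and hybridisation, the log2 differences of 45 bacterial control probe sets were taken, with an SD of 0.12 between the monolayer arrays of the cell lines, 0.22 between the sheet arrays, 0.16 between sheet and monolayer of L6-HGF and 0.18 between sheet and monolayer of L6-WT. A gap of 2 times that SD served as a yardstick and does not cover differences between cultures. Nor does it cover a shift of the controls as a set, whose median was higher in sheets than in monolayers by 0.17 in L6-HGF and by 0.23 in L6-WT. The centring also removes the 3′ to 5′ ratio of the actin and GAPDH controls as a level. Relative to the centre, the 3′ minus 5′ difference of actin was 0.08 in the L6-HGF sheet, -0.12 in the L6-HGF monolayer, 0.11 in the L6-WT sheet and -0.06 in the L6-WT monolayer, higher in both sheets, and that of GAPDH lay between -0.02 and 0.08. The 4 comparisons share their arrays, so their values are given side by side and not as independent evidence.

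The question of the first pair of comparisons is what constitutive hHGF expression does to myoblast gene expression. By the mean over probe sets, 0 of the 9 genes differed by more than 2-fold between L6-HGF and L6-WT, in monolayers or in sheets. Over all genes, 0.225% were higher and 0.309% lower past 2-fold in L6-HGF monolayers, and 0.492% were higher and 0.95% lower in L6-HGF sheets. The median difference of the 9 genes was -0.13 in monolayers, with 3 above 0 and 6 below, and 0.03 in sheets, with 5 above 0 and 4 below, beside 0.0016 and -0.02 over all genes. Single probe sets went further. In monolayers 1 of the 22 was higher past 2-fold, an Igfbp5 probe set, and 1 was lower, an Igf2 probe set, against a background of 0.203% higher and 0.274% lower among all 31042 probe sets. In sheets 0 of the 22 were higher and 2 were lower, an Igf2 and an Igf1 probe set, against a background of 0.838% higher and 0.715% lower.

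**Figure D1:**
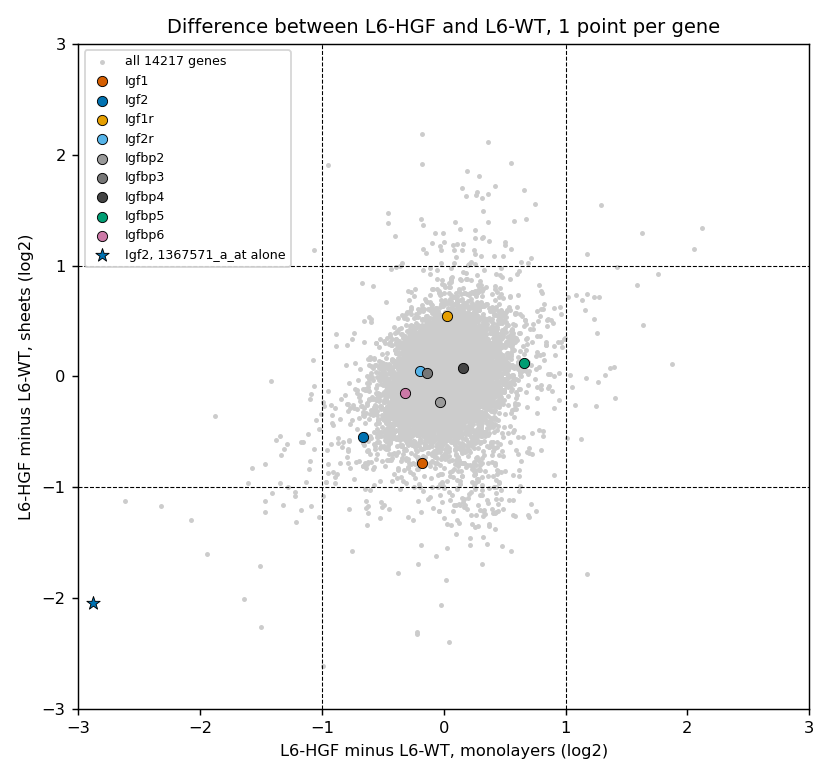
Log2 difference of L6-HGF minus L6-WT for each gene, in monolayers on the x axis and in sheets on the y axis, with 14217 genes in grey, the 9 IGF system genes in colour and the Igf2 probe set 1367571_a_at as a star. Dashed lines mark 2-fold; all 9 gene means lie inside them, whereas the star lies at -2.88 and -2.05.

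Igf2 gave the largest difference of any member, in a single probe set. Probe set 1367571_a_at, designed on NM_031511, the Igf2 reference transcript, had centred log2 values of -1.02 in the L6-HGF sheet, -1.08 in the L6-HGF monolayer, 1.02 in the L6-WT sheet and 1.80 in the L6-WT monolayer. Both L6-HGF arrays lay below both L6-WT arrays, and the 2 L6-HGF arrays differed from each other by 0.06, or by 0.42 after quantile normalization of the centred values. The L6-HGF signal was 7.35-fold lower in monolayers (log2 difference -2.88) and 4.13-fold lower in sheets (-2.05) than that of L6-WT. Of all 31042 probe sets, 1 was lower in the monolayer comparison and 6 were lower in the sheet comparison. The difference between formats, sheet minus monolayer, was 0.06 in L6-HGF and -0.77 in L6-WT, so that the difference between the cell lines was 0.83 smaller in size in sheets than in monolayers. In a bulk culture, fewer cells making a transcript and less transcript per cell cannot be told apart.

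The other 3 Igf2 probe sets, all designed on the older record M17960, did not show this difference. Probe set 1371206_a_at read 0.02 in the L6-HGF sheet, -0.08 in the L6-HGF monolayer, 0.20 in the L6-WT sheet and -0.02 in the L6-WT monolayer. Probe set 1388252_at read 0.14 in the L6-HGF sheet, -0.14 in the L6-HGF monolayer, 0.14 in the L6-WT sheet and -0.19 in the L6-WT monolayer. Probe set 1398322_at read 0.02 in the L6-HGF sheet, 0.06 in the L6-HGF monolayer, -0.02 in the L6-WT sheet and -0.16 in the L6-WT monolayer. Their L6-HGF minus L6-WT differences lay between -0.05 and 0.22 in monolayers and between -0.18 and 0.04 in sheets, within 2 SD of the bacterial controls in both. The monolayer differences of the 4 Igf2 probe sets spanned 3.10 log2 units, the widest span among 428 genes with at least 4 probe sets, whose median span was 0.396. In sheets the span was 2.08, and 1 other gene spanned as much. Which part of the Igf2 transcripts each probe set reads, and whether the 3 M17960 probe sets gave any signal above background, cannot be known from centred values and was not tested. The gene mean of the 4 probe sets, -0.66 (1.58-fold lower) in L6-HGF monolayers and -0.55 (1.46-fold lower) in L6-HGF sheets, therefore rests on 1367571_a_at, and without it the mean was 0.07 and -0.05.

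Over the 4 arrays, the genes whose centred values lay nearest to those of 1367571_a_at, by Euclidean distance among 14216 other genes, were Camk1g at 0.951, Fndc1 at 1.01 and Acta1 at 1.03. Camk1g encodes a calcium/calmodulin-dependent kinase, Fndc1 a fibronectin type III domain protein and Acta1 the actin of skeletal muscle fibres. Acta1 read -0.87 in the L6-HGF sheet, -0.82 in the L6-HGF monolayer, 1.14 in the L6-WT sheet and 0.82 in the L6-WT monolayer, so that both L6-HGF arrays again lay below both L6-WT arrays. Within each line, however, the order of the Acta1 values was the reverse of that of 1367571_a_at. The Acta1 gap between the formats was within 2 SD of the bacterial controls in both lines, as was that of 1367571_a_at in L6-HGF. Sheet minus monolayer in L6-WT was 0.32 for Acta1 and -0.77 for 1367571_a_at. In L6-HGF it was -0.52 for Camk1g and -0.44 for Fndc1, against 0.06 for 1367571_a_at. With 4 points, this likeness is a description of distance only, and the order of the arrays was not shared.

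**Figure D2:**
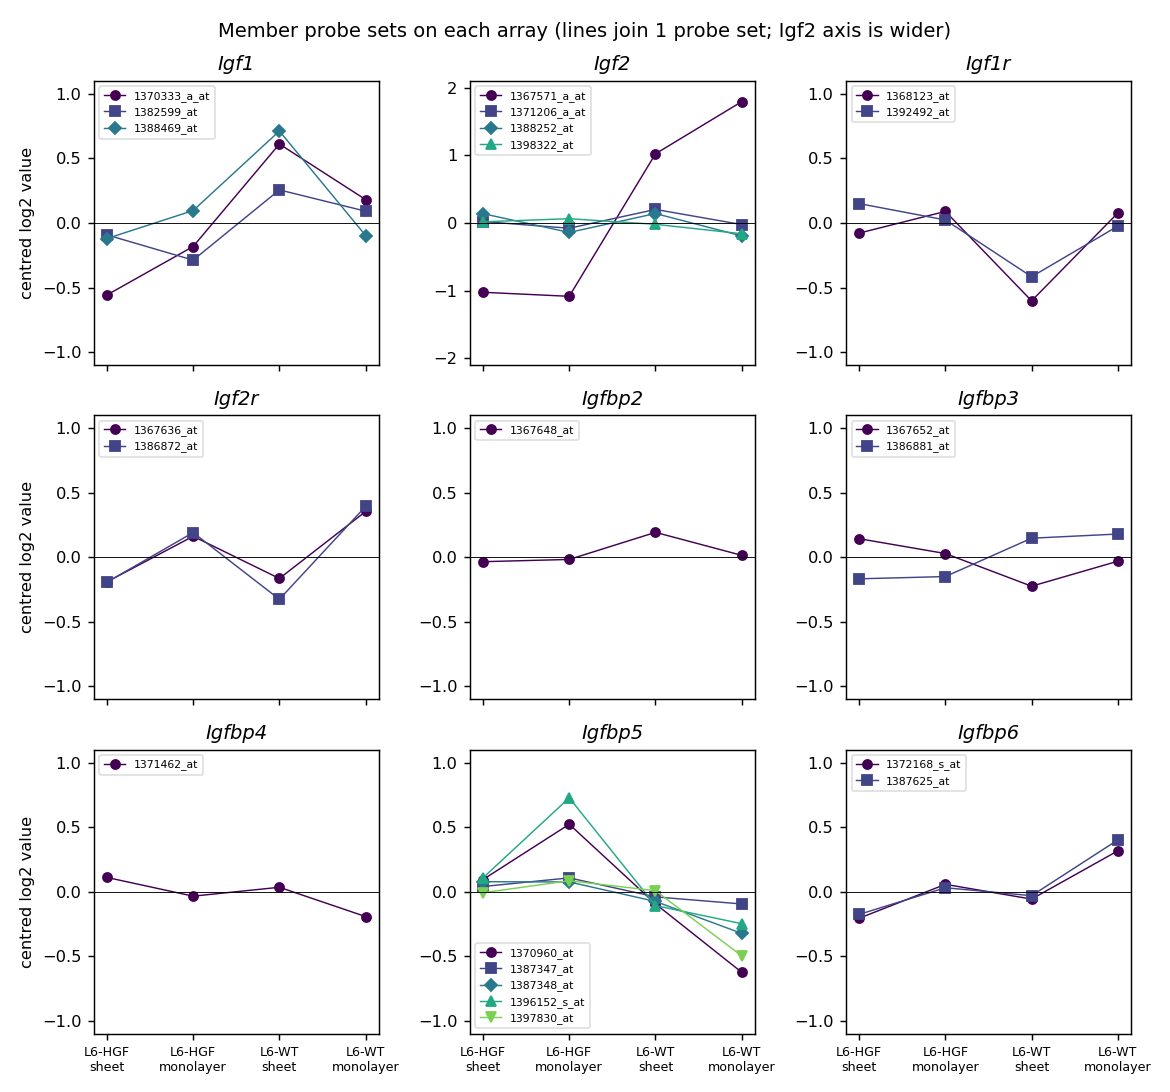
Centred log2 value (y axis) of each probe set of the 9 IGF system genes on the 4 arrays (x axis, L6-HGF sheet, L6-HGF monolayer, L6-WT sheet, L6-WT monolayer), with a wider axis for Igf2. The Igf2 probe set 1367571_a_at runs between -1.08 and 1.80, whereas the other 3 Igf2 probe sets stay between -0.19 and 0.20.

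Igf1, the ligand also known as somatomedin C, stood highest in the L6-WT sheet in each of its 3 probe sets. Probe set 1370333_a_at read -0.56 in the L6-HGF sheet, -0.18 in the L6-HGF monolayer, 0.61 in the L6-WT sheet and 0.18 in the L6-WT monolayer. Probe set 1388469_at read -0.12 in the L6-HGF sheet, 0.10 in the L6-HGF monolayer, 0.71 in the L6-WT sheet and -0.10 in the L6-WT monolayer. In both, the gap between the L6-WT sheet and the next array was larger than 2 SD of the bacterial controls. Probe set 1382599_at had the same array on top but a smaller range, with -0.09 in the L6-HGF sheet, -0.29 in the L6-HGF monolayer, 0.26 in the L6-WT sheet and 0.09 in the L6-WT monolayer. Igf1 was lower in L6-HGF than in L6-WT sheets by all 3 probe sets, at -1.17 (2.25-fold), -0.83 (1.78-fold) and -0.35 (1.27-fold), with a mean of -0.78 (1.72-fold, percentile 1.80 of all genes). In monolayers the probe sets split, at -0.36, 0.19 and -0.38, with a mean of -0.18. The mean difference between the cell lines differed by -0.60 between sheets and monolayers (sheets minus monolayers, percentile 4.42 of all genes), which could not be tested.

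The receptors of the 2 ligands differed by less than 2-fold in every comparison. Igf1r, the signalling receptor, averaged 0.04 in the L6-HGF sheet, 0.06 in the L6-HGF monolayer, -0.51 in the L6-WT sheet and 0.03 in the L6-WT monolayer over its 2 probe sets. The L6-WT sheet stood below the other 3 arrays by more than 2 SD of the bacterial controls in both probe sets. Those 3 arrays lay within 0.03 of each other by the mean only, because the probe sets ordered them differently. Sheet minus monolayer in L6-HGF was -0.17 for 1368123_at and 0.13 for 1392492_at. In L6-HGF sheets Igf1r was thus 1.46-fold higher than in L6-WT sheets (log2 difference 0.55; 0.52 and 0.57 by probe set, percentile 97.3 of all genes) and differed by 0.03 between the monolayers. The L6-WT sheet was therefore the array with the highest Igf1 and the lowest Igf1r mean.

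Igf2r, the clearance receptor of IGF2, followed the culture format. Its mean over 2 probe sets was -0.19 in the L6-HGF sheet, 0.18 in the L6-HGF monolayer, -0.24 in the L6-WT sheet and 0.38 in the L6-WT monolayer. Both sheets lay below both monolayers in both probe sets. The sheet minus monolayer difference was -0.37 (1.29-fold lower) in L6-HGF and -0.62 (1.54-fold lower, percentile 3.17 of all genes) in L6-WT. Between the cell lines it was -0.20 in monolayers and 0.05 in sheets, both within 2 SD of the bacterial controls.

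Igfbp5, a binding protein that mouse myoblasts are known to secrete as they differentiate, was the member with the highest monolayer difference. Probe set 1370960_at read 0.09 in the L6-HGF sheet, 0.52 in the L6-HGF monolayer, -0.09 in the L6-WT sheet and -0.62 in the L6-WT monolayer. In monolayers it was 2.21-fold higher in L6-HGF cells than in L6-WT cells (log2 difference 1.15, with 38 probe sets higher), and 1.14-fold higher in sheets (0.19). The 2 monolayers formed the ends of the range and the 2 sheets its middle. Probe set 1396152_s_at, just inside the 2-fold line, read 0.11 in the L6-HGF sheet, 0.73 in the L6-HGF monolayer, -0.11 in the L6-WT sheet and -0.25 in the L6-WT monolayer, a 1.97-fold difference between the monolayers. The other 3 probe sets were higher in L6-HGF monolayers as well, by 0.58 (1397830_at), 0.40 (1387348_at) and 0.20 (1387347_at). The smallest difference, that of 1387347_at, was within 2 SD of the bacterial controls (0.24 for this pair of arrays). That probe set was designed on NM_012817, the Igfbp5 reference transcript. Probe sets 1396152_s_at and 1397830_at were designed on the same sequence record, so the 5 are not separate readings. The 5 monolayer differences lay above 0, over a span of 0.945 log2 units. Their mean was 0.66 (1.58-fold higher, percentile 99.1 of all genes), and the median of the 5 differences was 0.58. In sheets their differences lay between -0.02 and 0.21, with a mean of 0.12. The mean difference between the cell lines thus differed by -0.54 between sheets and monolayers (sheets minus monolayers, percentile 5.66 of all genes), again untested.

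**Figure D3:**
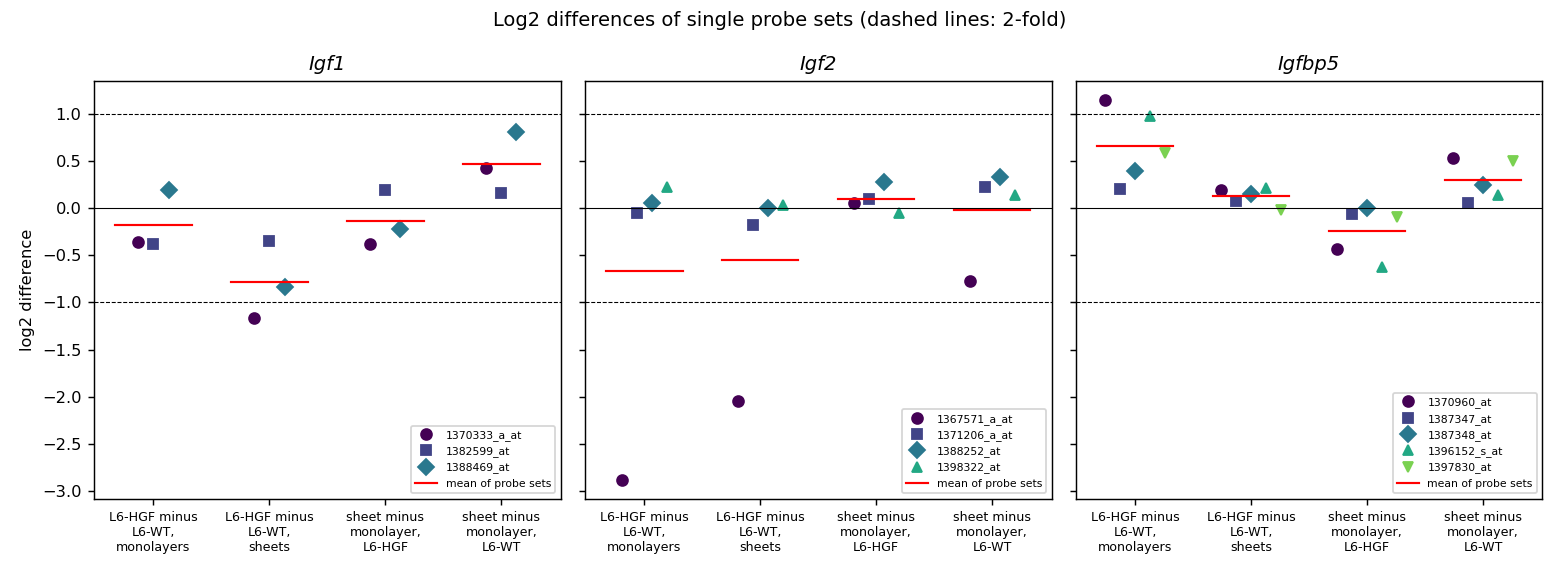
Log2 differences (y axis) of the single probe sets of Igf1, Igf2 and Igfbp5 in the 4 comparisons (x axis), with a red bar at the mean of each gene's probe sets. All 5 Igfbp5 probe sets lie above 0 in L6-HGF minus L6-WT monolayers, the lowest at 0.20 (1387347_at, within 2 SD of the bacterial controls). In the same comparison 1 of 4 Igf2 probe sets sets the Igf2 mean at -0.66.

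Igfbp6, a binding protein that prefers IGF2, was highest in the L6-WT monolayer. Its mean over 2 probe sets was -0.19 in the L6-HGF sheet, 0.04 in the L6-HGF monolayer, -0.04 in the L6-WT sheet and 0.36 in the L6-WT monolayer. The L6-WT monolayer stood above the next array by 0.31, more than 2 SD of the bacterial controls, and the other 3 arrays were not separated by that yardstick. The difference of L6-HGF minus L6-WT was -0.31 in monolayers and -0.15 in sheets, and that of sheet minus monolayer was -0.23 in L6-HGF and -0.40 in L6-WT.

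Igfbp2, Igfbp3 and Igfbp4 had no gap between neighbouring arrays beyond 2 SD of the bacterial controls. Igfbp2 read -0.03 in the L6-HGF sheet, -0.02 in the L6-HGF monolayer, 0.19 in the L6-WT sheet and 0.02 in the L6-WT monolayer. Igfbp4 read 0.11 in the L6-HGF sheet, -0.03 in the L6-HGF monolayer, 0.03 in the L6-WT sheet and -0.19 in the L6-WT monolayer. Igfbp3, the main carrier of IGFs in serum, had 2 probe sets of opposite sign in sheets, where the difference of L6-HGF minus L6-WT was 0.37 for 1367652_at and -0.31 for 1386881_at, so that its mean of 0.03 describes neither. In monolayers it was 0.06 for 1367652_at and -0.33 for 1386881_at, which is beyond 2 SD for that pair of arrays.

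The second pair of comparisons set myoblast sheets against monolayers of the same cells. By the mean, 0 of the 9 genes passed 2-fold in either cell line, against 1.17% of all genes higher and 2.57% lower in L6-HGF sheets and 0.717% higher and 0.492% lower in L6-WT sheets. Of all probe sets, 1.01% were higher and 2.04% lower in L6-HGF sheets, and 0.515% were higher and 0.667% lower in L6-WT sheets, while 0 of the 22 member probe sets were. The median of the 9 genes was -0.02 in L6-HGF, with 3 above 0 and 6 below, and -0.02 in L6-WT, with 4 above 0 and 5 below, whereas that of all genes was 0.03 in each. The largest gene differences in L6-HGF were those of Igf2r (-0.37), Igfbp5 (-0.24, or -0.09 by the median of its 5 probe set differences) and Igfbp6 (-0.23). In L6-WT they were those of Igf2r (-0.62), Igf1r (-0.54), Igf1 (0.47) and Igfbp6 (-0.40). Igf2r and Igfbp6 were lower in sheets of both cell lines, by every one of their probe sets. The ligand Igf1 and the receptor Igf1r differed between the formats mainly in L6-WT, at 0.47 and -0.54, against -0.13 and -0.02 in L6-HGF. In L6-HGF the probe sets of each of these genes differed in sign.

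**Figure D4:**
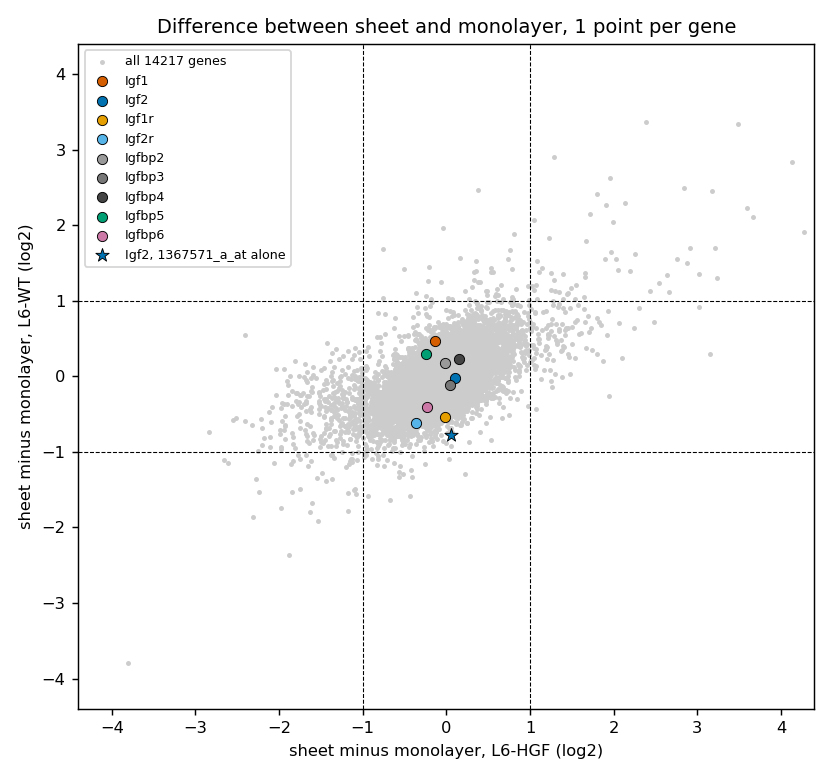
Log2 difference of sheet minus monolayer for each gene, in L6-HGF on the x axis and in L6-WT on the y axis, with 14217 genes in grey, the 9 IGF system genes in colour, the Igf2 probe set 1367571_a_at as a star and dashed lines at 2-fold. All 9 gene means lie inside the dashed lines, with Igf2r at -0.37 and -0.62 the lowest of them in both lines, and the star lies at 0.06 and -0.77.

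A single test across the arrays was possible, with limma and terms for the cell line and for the format, which leaves 1 residual degree of freedom and takes any true difference of effect between formats as noise. For the cell line, 0 of 31042 probe sets passed after Benjamini-Hochberg adjustment, with a smallest adjusted p of 0.505. Before adjustment, 1475 higher and 1502 lower probe sets had p under 0.05, among them 4 of the 22 members. The member furthest out was Igf2 1367571_a_at, at -2.46 ± 0.235 (log2 difference and SE, limma adjusted p = 0.505), followed by 2 Igf1 probe sets at -0.36 and -0.77 and Igfbp3 1386881_at at -0.32. All 4 were lower in both L6-HGF arrays than in the L6-WT array of the same format. For the format, the smallest adjusted p was 0.102, with 0 probe sets past the threshold. Without adjustment, 2753 probe sets were higher and 3580 lower in sheets at p under 0.05. Both Igf2r probe sets were among 4 members at that unadjusted level, at -0.55 (limma adjusted p = 0.183) and -0.44 (limma adjusted p = 0.187), with Igfbp6 1372168_s_at at -0.32 and Igf2 1388252_at at 0.30. No member was thus called by limma.

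The rest of the pathway was read from lists of related genes. The counts in these and the later lists stand beside the following shares of all genes past 2-fold. In L6-HGF against L6-WT, 0.225% were higher and 0.309% lower in monolayers, and 0.492% higher and 0.95% lower in sheets. In sheets against monolayers, 1.17% were higher and 2.57% lower in L6-HGF, and 0.717% higher and 0.492% lower in L6-WT. Of 8 relatives outside the 9 members, 0 passed 2-fold in any comparison, with medians between -0.09 and 0.12. The lowest was Igfbp7, a secreted protein with low affinity for IGFs, at -0.71 in L6-HGF against L6-WT monolayers and -0.47 in sheets. The insulin receptor Insr was the highest in L6-HGF against L6-WT sheets, at 0.30, and the lowest in L6-WT sheets against monolayers, at -0.27, but its 2 probe sets disagreed, at 0.01 and 0.58 in the sheets and at -0.12 and -0.43 between the formats. The remaining extremes were Igfbpl1 at 0.25 in the monolayers and -0.12 in L6-HGF sheets against monolayers, Ins1 at 0.35 in L6-HGF sheets against monolayers and Igfals at 0.33 in L6-WT sheets against monolayers.

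The list of proteases of IGF binding proteins, related proteases and inhibitors held 10 measured genes. Of these, 1 was lower past 2-fold in L6-HGF against L6-WT monolayers and 2 in sheets. In sheets against monolayers 2 were lower in L6-HGF and 1 in L6-WT, and 0 were higher in any comparison. Stc1, a stanniocalcin of the family whose members inhibit the IGFBP protease PAPP-A, was the one in the monolayers, at -1.07. It was 0.15 in L6-HGF against L6-WT sheets, 0.67 in L6-HGF sheets against monolayers and -0.56 in L6-WT sheets against monolayers. Pappa, the gene of PAPP-A, was not among the measured genes. Adamts1, a metalloprotease, was lower in L6-HGF sheets than in L6-WT sheets, at -1.34, and so was Plau, the urokinase that generates plasmin, at -1.02. Plau was also lower in sheets than in monolayers of both lines, at -1.75 in L6-HGF and -1.09 in L6-WT, and Stc2 was lower in L6-HGF sheets at -1.32. The medians of the list lay between -0.18 and -0.05.

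Igf2 is an imprinted gene, expressed mainly from the paternal copy, and its neighbour H19 is expressed from the maternal copy under a shared control region. In RefSeq only Mir675, the microRNA hosted by H19, lies between them. H19 was -0.47 in L6-HGF against L6-WT monolayers, 0.02 in sheets, 0.05 in L6-HGF sheets against monolayers and -0.45 in L6-WT sheets against monolayers, beside -2.88, -2.05, 0.06 and -0.77 for 1367571_a_at. Of 13 measured imprinted genes and IGF2 mRNA binding proteins, only Mest, an imprinted hydrolase gene of mesodermal tissue, passed 2-fold. It was lower in L6-HGF monolayers at -1.06 than in those of L6-WT and lower in sheets than in monolayers at -1.10 in L6-HGF and -1.51 in L6-WT. In L6-HGF against L6-WT sheets the extremes were Ndn at 0.25 and Mest at -0.66. Igf2bp1, Igf2bp2 and Igf2bp3, whose proteins bind the Igf2 transcript, lay between -0.25 and 0.26 in all comparisons. Igfbp2 and Igfbp5 are direct neighbours in the annotation, with 0 genes between them, but read -0.03 and 0.66 in the monolayers of the cell lines.

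Of 34 measured genes of signalling downstream of the IGF receptor, 0 passed 2-fold in L6-HGF against L6-WT monolayers, where the docking protein gene Irs1 was highest at 0.59 and the mTOR inhibitor Deptor lowest at -0.43. In sheets 1 was higher, Trib3, a stress-induced pseudokinase that can bind AKT, at 1.18. In L6-HGF sheets against monolayers Trib3 was higher at 1.82 and Irs1 lower at -1.15, and in L6-WT sheets against monolayers none passed, with Socs3, a feedback inhibitor of cytokine receptors, just under the line at 0.996 and Sos1 lowest at -0.68. The list medians lay between -0.18 and 0.04. Of 14 measured FOXO target genes, which IGF signalling through AKT is known to hold down in muscle, 0 passed in L6-HGF against L6-WT monolayers, where Sesn1 was highest at 0.17 and the ubiquitin ligase Trim63 lowest at -0.53. Bnip3, a mitophagy gene that also responds to hypoxia, was higher at 1.18 in L6-HGF against L6-WT sheets, at 2.91 in L6-HGF sheets against monolayers and at 1.71 in L6-WT sheets against monolayers, and Ccng2, a cyclin family gene, at 1.23 in L6-HGF sheets against monolayers. The list medians lay between -0.08 and 0.06.

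**Figure D5:**
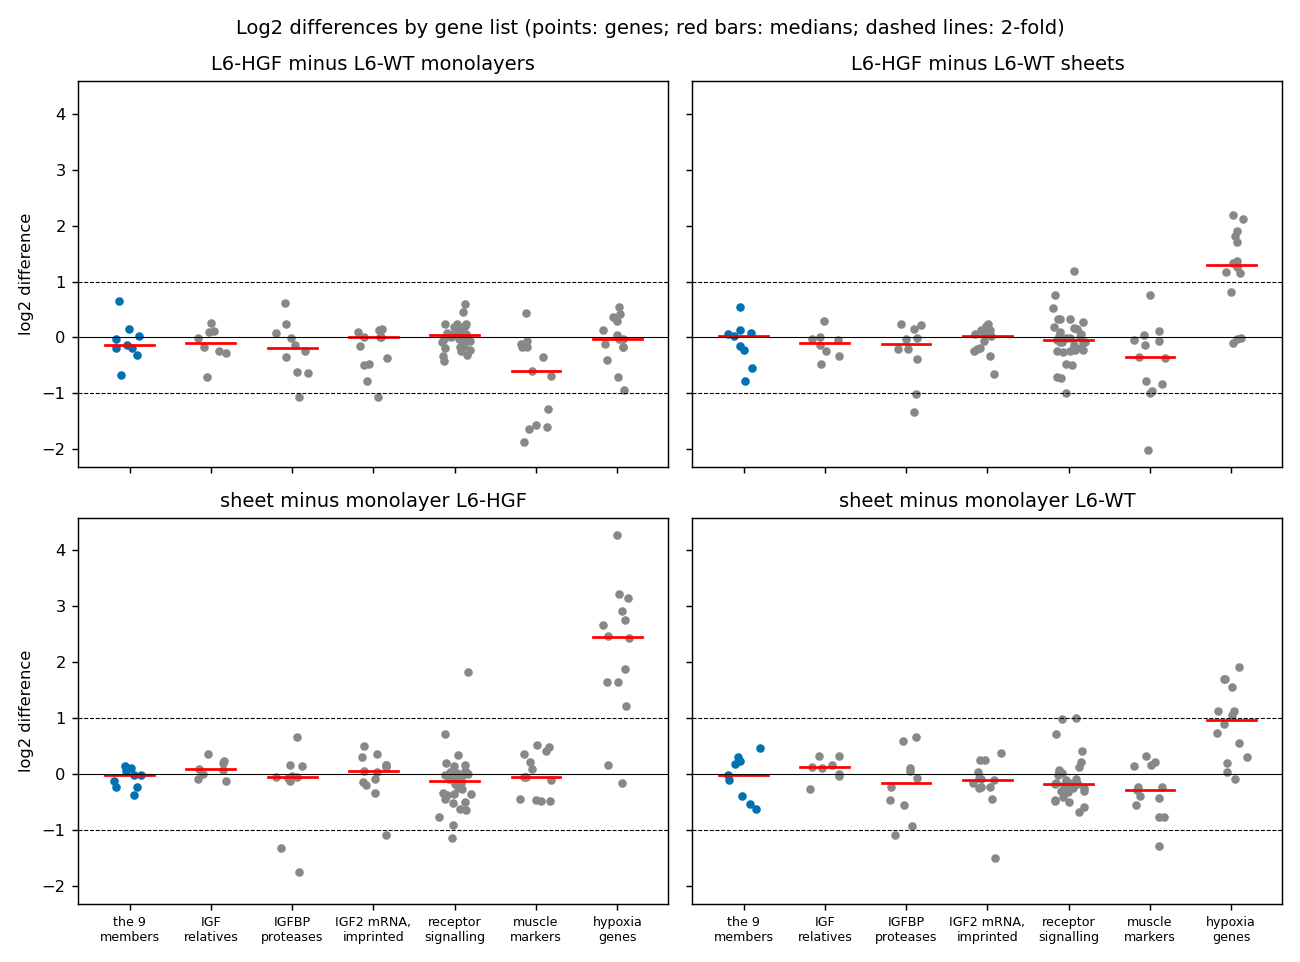
Log2 differences (y axis) of single genes in the 4 comparisons, by list, with red bars at the medians. Shown are the 9 IGF system genes, their relatives, IGFBP and related proteases, and imprinted and IGF2 mRNA binding genes. Receptor signalling genes, muscle markers and hypoxia genes follow. The medians of the 9 members lie between -0.13 and 0.03, whereas that of the hypoxia genes reaches 2.45 in L6-HGF sheets against monolayers.

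The cultures also differed in genes outside the IGF system. Of 14 hypoxia responsive genes, 0 passed 2-fold in L6-HGF against L6-WT monolayers, where the extremes were Vegfa at 0.55 and Adm at -0.95. In L6-HGF sheets 12 were higher than in monolayers, namely Ankrd37 at 4.28, Ero1a at 3.22, Adm at 3.15, Bnip3, Car9, Pdk1, Hk2, Slc2a1, P4ha1, Vegfa, Ddit4 and Ndrg1, with a list median of 2.45. In L6-HGF against L6-WT sheets 10 of these were higher, all but Ddit4 and Ndrg1, with a median of 1.30, and in L6-WT sheets against monolayers 7 were higher (Ankrd37, Bnip3, Ero1a, Car9, Slc2a1, Pdk1 and Vegfa), with a median of 0.97. None was lower past 2-fold, and Egln3 and Pfkfb3 lay between -0.16 and 0.16 throughout. In the comparison with the largest hypoxia shift, L6-HGF sheets against monolayers, Igf1 was -0.13, Igf1r -0.02 and Igf2r -0.37, and in L6-WT sheets against monolayers they were 0.47, -0.54 and -0.62. The part of the hypoxia genes in these differences was not tested. Of 13 measured markers of myoblasts and early muscle, 5 were lower past 2-fold in L6-HGF monolayers, relative to L6-WT, namely Myh3 at -1.88, Acta1 at -1.64, Tnnc2 at -1.61, Tnnc1 at -1.58 and the fusion gene Mymk at -1.28, and 2 were lower in sheets, Acta1 at -2.01 and Mymk at -1.002, with list medians of -0.60 and -0.36. Between formats only Myh3 passed, at -1.30 in L6-WT sheets against monolayers, and the extremes in L6-HGF were Ckm at 0.52 and Mef2c at -0.49. The intermediate filament gene Des was the highest of the list, at 0.43 in monolayers and 0.76 in sheets, and Myh3 was -0.36 in sheets. The part of these differences in the lower Igf2 signal of 1367571_a_at was not tested. Of 12 fibroblast markers, 3 (Postn, Dpt and Mfap5) were lower past 2-fold in L6-HGF than in L6-WT in monolayers and in sheets. Past 2-fold, 4 (Dpt, Dcn, Postn and Lum) were higher in sheets than in monolayers of both lines. The list did not rise as a whole in sheets. In L6-HGF 6 lay above 0 and 6 below, with a median of -0.13, and in L6-WT 7 above and 5 below, with a median of 0.13. Col1a1 was lowest, at -0.86 in L6-HGF and -0.43 in L6-WT. Of 4 endothelial and 4 leukocyte markers, 0 passed 2-fold in any comparison. With no signal levels, the presence of any of these markers could not be checked.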

How the data were processed

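RNA of 4 rat L6 cultures was measured with 1 array each. The authors normalized the arrays with RMA, as the methods and the submitters' processing notes state, and deposited log2 values whose median over the 4 arrays is 0 for every probe set within 5e-07. The RMA version and the genome build behind the array were not given in the sources used here. Signal levels are lost by the centring, so no filter on dim probe sets could be applied.

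Of 31099 probe sets, 57 controls were left out and 31042 compared. The platform annotation gave 20826 of them 1 symbol, 436 several and 9780 none listed. A gene was the mean of its single-symbol probe sets, and the symbols of all 22 member probe sets matched the current rat gene table by Entrez identifier. Log2 differences were taken between arrays, with the 2-fold threshold that the study applied to its arrays. limma 3.58.1 (R 4.3.3) was fitted across all probe sets with cell line and format as terms, and was tested on simulated data. Python 3.11.15, numpy 2.4.6, pandas 2.3.3 and matplotlib 3.10.9 were used for the rest. Sequences were taken from RefSeq (GRCr8).

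The members, gene lists and tests were chosen with earlier results of these data known. All 9 members were named, of each pathway list every gene past 2-fold and otherwise the highest and lowest gene of a comparison, and the 3 genes nearest to the Igf2 probe set past 2-fold. Alternatives were quantile normalization, centring of each array on its median, the median of probe sets on each array in place of their mean, plain _at probe sets only, a 1.5-fold threshold, a model without the other term and, chosen after seeing the data, the Igf2 mean without 1367571_a_at.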

Additional observations from a re-analysis of the deposited data

Results flagged for a closer look

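The difference between sheet and monolayer ran in opposite directions in the cell lines for 2 member probe sets, each time by more than 2 SD of the bacterial controls. For Igf1 1370333_a_at it was -0.38 in L6-HGF and 0.43 in L6-WT, a difference of -0.81 (log2). For Igfbp5 1370960_at it was -0.43 in L6-HGF and 0.53 in L6-WT, a difference of -0.96. With 1 array per condition neither difference was tested. The share of all probe sets that met the same rule was not counted, so these 2 cannot be called unusual. Of the other probe sets of Igf1, 1388469_at was -0.22 in L6-HGF and 0.81 in L6-WT, the L6-HGF value being within 2 SD, and 1382599_at was 0.20 in L6-HGF and 0.16 in L6-WT. Of the other Igfbp5 probe sets, 1396152_s_at was -0.62 in L6-HGF and 0.14 in L6-WT, the L6-WT value being within 2 SD. The remaining 3 did not run in opposite directions beyond 2 SD, with 1387348_at at 0.0021 in L6-HGF and 0.25 in L6-WT, 1387347_at at -0.07 in L6-HGF and 0.05 in L6-WT, and 1397830_at at -0.09 in L6-HGF and 0.50 in L6-WT.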

How the results depend on the processing

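Under a 1.5-fold threshold, 2 of the 9 genes passed in L6-HGF against L6-WT monolayers (Igf2 and Igfbp5), 1 in sheets (Igf1) and 1 in L6-WT sheets against monolayers (Igf2r), where 0 passed 2-fold. At that threshold 1 member probe set passed in L6-HGF sheets against monolayers (1396152_s_at) and 4 in L6-WT sheets against monolayers (1367571_a_at, 1368123_at, 1386872_at and 1388469_at), again where 0 passed 2-fold. Between the cell lines 3 member probe sets passed it in monolayers and 3 in sheets, where 2 passed 2-fold in each. The shares of all genes and of all probe sets past 1.5-fold were not counted. Of 172 member values recomputed under the other settings, 157 stayed within 1 SD of the bacterial controls, and 15 moved further. Of these, 7 changed sign, all of them from gene means within 2-fold: Igf2 in 6, and Igf1 in L6-HGF sheets against monolayers (-0.13). This Igf1 value was 0.06 when the median of probe sets was taken on each array before the difference. The median of the 3 Igf1 probe set differences was -0.22 and kept the sign. The Igf2 mean in L6-HGF against L6-WT monolayers (-0.66) was -0.02 by the median of probe sets on each array, 0.14 over plain _at probe sets and 0.07 without 1367571_a_at, because the probe sets disagree. In sheets it (-0.55) was -0.15, 0.02 and -0.05 under the same 3 settings, and in L6-WT sheets against monolayers (-0.02) it was 0.26, 0.24 and 0.23. Igfbp5 by the median of probe sets on each array was 0.43 in L6-HGF against L6-WT monolayers (0.66) and -0.03 in L6-HGF sheets against monolayers (-0.24). Quantile normalization of the centred values moved 1367571_a_at to -3.15 and Igfbp5 1370960_at to 1.30 in monolayers, and 1367571_a_at to 0.42 in L6-HGF sheets against monolayers (0.06). Under it, 3 member probe sets passed 2-fold in L6-HGF against L6-WT monolayers, where 2 passed in the main setting. The share of all probe sets past 2-fold under quantile normalization was not counted. In limma without the other term, 0 probe sets were called, with smallest adjusted p of 1 for the cell line and 0.0625 for the format. Apart from the limma fit with both terms, no paired analysis was possible because each condition has 1 array. For the same reason no array could be left out.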
